A study of Mus musculus with 12 samples.

Results

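The 7 genes described here encode secreted proteins that recruit, expand or mature neutrophils and macrophages. They are the CXC chemokines Cxcl1, Cxcl2, Cxcl3 and Cxcl5 and the colony-stimulating factors Csf1, Csf2 and Csf3. They were taken by symbol, and all 7 were found among the 56691 genes listed for each of 2 mouse mammary carcinoma lines. They were picked with their levels, their KO-control differences and the difference between the lines already known, so these values are given as a description, without p-values. Other genes of the same pathway carry tests.

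The 4 groups are EMT6 KO, EMT6 control, 4T1 KO and 4T1 control, with 3 libraries each. KO cells are labelled sgNEDD4, a guide RNA against the ubiquitin ligase Nedd4, and control cells are labelled WT. Both EMT6 and 4T1 arose in BALB/c mice and grow as transplanted mammary tumours, but these libraries come from cells in culture (DMEM, 10% FBS). Messenger RNA was captured on beads from total RNA and sequenced. The sources used here do not say whether KO cells were 1 clone or a pool, whether replicates were grown apart, or where the guide cuts. P-values therefore measure only the spread between these libraries, which may be technical. The labels name the tumour line alone as the source of the RNA.

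Libraries held 13705612 to 19761604 counts. At this depth 3 counts, taken as the floor, equal 0.152 to 0.219 CPM. Nedd4 transcript stood at 9.89% of control in EMT6 KO cells and at 26.3% of control in 4T1 KO cells. Of 8 epithelial markers, 2 averaged at least 1 FPKM in EMT6 KO and 3 in EMT6 control cells, with Krt5 and Cldn4 at 0 counts, whereas 7 did so in 4T1 KO and in 4T1 control cells. The leukocyte marker Ptprc was at 0 counts in EMT6 and stayed under 0.1 FPKM in 4T1, and Mpo was at 0 counts in all 12 libraries. Of the 11 listed leukocyte markers, 2 averaged at least 1 FPKM in each group, Cd68 and Cd14. Cd68 averaged 7.39 FPKM in EMT6 KO, 19.4 in EMT6 control, 18.6 in 4T1 KO and 11.5 in 4T1 control libraries. In the same order Cd14 averaged 8.81, 10.9, 8.13 and 13.0 FPKM. FPKM is the count scaled by the exonic length of the gene and the total count of the library, and CPM is scaled by the total alone. In bulk samples, fewer cells that make a transcript and less transcript per cell cannot be told apart.

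The 4 chemokines belong to the ELR group, named after a short amino acid motif ahead of the CXC cysteines, and they bind the receptor Cxcr2 on neutrophils. Csf1 is the macrophage colony-stimulating factor M-CSF, Csf2 is GM-CSF and Csf3 is the granulocyte factor G-CSF, which drives neutrophil production in the bone marrow. Transcription of the chemokines and of Csf2 and Csf3 is induced by interleukin-1, TNF and interleukin-17 through NF-kappaB and C/EBP factors, and their mRNAs are typically short-lived because of AU-rich elements near the 3′ end. 4T1 is known for G-CSF secretion and for a strong rise of neutrophils in tumour-bearing mice.

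The 4 chemokine genes lie in 1 cluster on chromosome 5, in the order Cxcl5, Cxcl3, Cxcl1 and Cxcl2, all on the plus strand, within 146.6 kb. The deposited tables place Cxcl5 (ENSMUSG00000029371) at 90907219-90909483, Cxcl3 (ENSMUSG00000029379) at 90933962-90937459, Cxcl1 (ENSMUSG00000029380) at 91039100-91040974 and Cxcl2 (ENSMUSG00000058427) at 91051730-91053797. The gaps are 24.48, 101.6 and 10.76 kb. The factor genes are scattered. Csf1 (ENSMUSG00000014599) is on the minus strand of chromosome 3 at 107648364-107667785. Csf2 (ENSMUSG00000018916) is on the minus strand of chromosome 11 at 54138097-54140493, and Csf3 (ENSMUSG00000038067) is on the plus strand of the same chromosome at 98592089-98594455. These positions are the tables' own, which name no build and do not match the GRCm38 positions used for the sequences below.

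The promoters of Cxcl1, Cxcl2 and Cxcl3 are printed because they share the same letters in the same order. Each window is 90 bases of the plus strand of GRCm38.p6, taken from RefSeq, at chr5:90891129-90891218 for Cxcl1, chr5:90903760-90903849 for Cxcl2 and chr5:90785990-90786079 for Cxcl3. The first run of capitals, GGGAATTTCCC, is the longest run common to the 3 promoters ahead of their starts, 11 bases, and contains a form of the NF-kappaB motif. The second, ATAAAAGG, is a form of the TATA box.
Cxcl1: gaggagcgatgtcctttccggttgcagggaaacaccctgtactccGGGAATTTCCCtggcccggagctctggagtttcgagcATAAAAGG
Cxcl2: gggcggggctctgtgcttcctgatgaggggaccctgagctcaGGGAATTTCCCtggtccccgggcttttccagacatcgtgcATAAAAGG
Cxcl3: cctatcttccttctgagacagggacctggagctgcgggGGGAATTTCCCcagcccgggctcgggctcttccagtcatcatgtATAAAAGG
GGGAATTTCCC starts 71, 97 and 73 bases before the RefSeq start of Cxcl1, Cxcl2 and Cxcl3, and 26, 29 and 33 bases separate it from ATAAAAGG. On either strand, GGGAATTTCCC occurs in 14 of 32851 mouse promoters of 300 bases, or 0.0426%, and ATAAAAGG in 1.76%. RefSeq promoters were matched for 5 of the 7 genes, these 3 chemokines with Csf1 and Csf2, and not for Cxcl5 and Csf3. The looser motif GGGNNNTTCC, present on either strand in 5.56% of promoters and also matched by the longer run, occurs once in the Csf1 promoter, on the opposite strand, and not in the Csf2 window. The AP-1 motif TGANTCA, in 7.81% of promoters, occurs in none of the 5. A match describes the letters only.

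The AU-rich elements are printed because they separate the 7 mRNAs from one another. Capitals mark only the first nonamer TTATTTATT of each 3′ untranslated region, a motif that AU-rich element-binding proteins recognise. In the Csf2 stretch further nonamers overlap it and run on in lower case. The 30-base stretches are from GENCODE M21 on GRCm38, at chr5:90892615-90892644 for Cxcl1, chr5:90905316-90905345 for Cxcl2, chr5:90787867-90787896 for Cxcl3 and the minus strand of chr11:54247328-54247357 for Csf2.
Cxcl1: atttatgtatTTATTTATTccacaaagtgt
Cxcl2: gagagttcacTTATTTATTtatctatgtat
Cxcl3: ttatcagttgTTATTTATTgaaatggtctt
Csf2: ttttaaatatTTATTTATTtatttatttat
Csf2 and Cxcl2 hold 4 nonamers each, Cxcl1 holds 2 and Cxcl3 holds 1. Cxcl5, Csf1 and Csf3 hold 0, although Csf3 has 6 and Cxcl5 has 5 of the shorter ATTTA. The nonamer, overlaps counted, occurs in 7.79% of the 20644 mouse genes with a 3′ untranslated region. The Csf2 region is 317 bases long and holds 9 ATTTA, a number that 0 of 810 other genes of like length reached. For Cxcl1, with 7 ATTTA in 592 bases, 0.553% of genes of like length had as many, and for Csf1, with 4 in 2111 bases, 48.7% did.

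Cxcl1, known as KC in the mouse, was a major transcript of both lines and lower in KO cells of both. In EMT6 it stood at 18.3, 16.4 and 19.95 FPKM in KO libraries, against 98.7, 104 and 83.5 FPKM in control libraries. Every EMT6 KO library was far below every control, and the KO mean was 19.1% of control. In 4T1 it stood at 90.4, 85.1 and 90.2 FPKM in KO libraries, against 115.8, 99.4 and 105 FPKM in control libraries. The groups did not overlap there either, and the KO mean was 83.0% of control. The fitted log2 change, KO over control, was -2.39 ± 0.09 (SE) in EMT6 and -0.35 ± 0.05 in 4T1, with n = 3 libraries per group here and below.

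**Figure D1:**
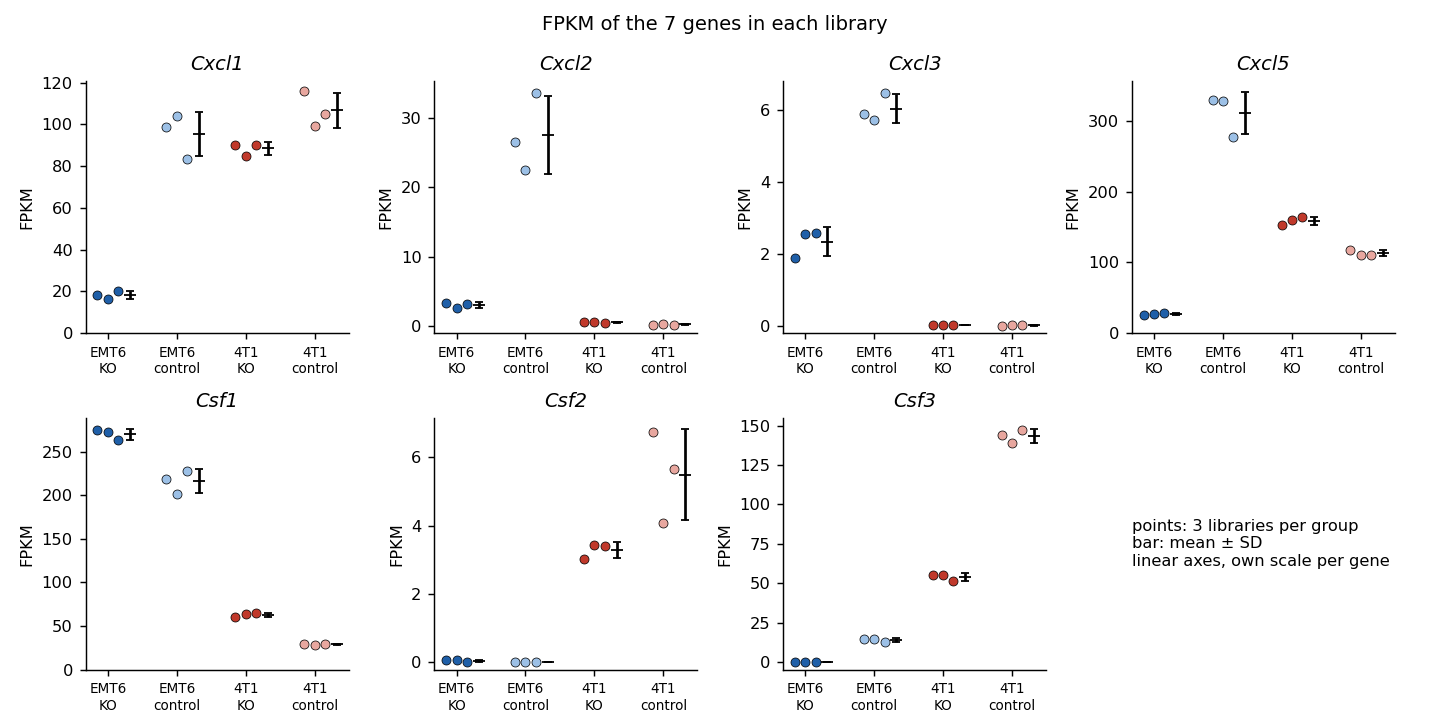
FPKM of each of the 7 genes (linear y axis, own scale per gene) in every library of EMT6 KO, EMT6 control, 4T1 KO and 4T1 control cells (x axis), with mean ± SD. Cxcl5 stands at 25.2 to 28.3 FPKM in EMT6 KO libraries and at 278 to 330 FPKM in EMT6 controls, while in 4T1 its KO libraries stand above the controls.

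Cxcl5, called LIX in the mouse, went opposite ways in the 2 lines. In EMT6 it stood at 25.2, 26.4 and 28.3 FPKM in KO libraries, against 330, 328 and 278 FPKM in control libraries. All KO libraries were far below all controls, and the KO mean was 8.53% of control. In 4T1 it stood at 153, 160 and 164 FPKM in KO libraries, against 118, 111 and 111 FPKM in control libraries. Here all KO libraries were above all controls, with a mean of 159 ± 5.35 FPKM in KO and 113 ± 3.84 FPKM in control libraries (SD), a ratio of 1.40. The log2 change was -3.55 ± 0.08 (SE) in EMT6 and 0.41 ± 0.04 in 4T1. Among all 56691 genes Cxcl5 ranked 2213 by mean FPKM in EMT6 KO cells and 97 in EMT6 control cells. In 4T1 its rank was 198 in KO and 325 in control cells. Of its 50-base transcript stretches, 0.852% also occur in other genes, which leaves it nearly free of shared sequence.

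Cxcl2, or MIP-2, was measured well in EMT6 but near the lower limit in 4T1. In EMT6 it stood at 3.21, 2.50 and 3.16 FPKM in KO libraries, against 26.5, 22.6 and 33.7 FPKM in control libraries, so the KO mean was 10.7% of control with no overlap. In 4T1 the KO libraries held 20, 19 and 15 counts and the control libraries 4, 9 and 3. The KO libraries were all above the controls, but the gene passed the low-count filter only through the KO group, so that a difference was built into its being tested. The log2 change was -3.22 ± 0.16 (SE) in EMT6 and 1.47 ± 0.45 in 4T1. From the summed 54 KO and 16 control counts, the 4T1 ratio was 297% of control with an exact 95% interval of 168% to 556%. The interval covers counting error only and not the spread between libraries. It is no test of the difference, since the gene was chosen and tested because of it. Without control replicate 2, which held 9 of those 16 counts, the 4T1 log2 change was 2.08.

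Cxcl3 was expressed in EMT6 and at the floor in 4T1. In EMT6 it stood at 1.89, 2.56 and 2.58 FPKM in KO libraries, against 5.91, 5.72 and 6.49 FPKM in control libraries. The KO libraries were all below the controls, the KO mean was 38.8% of control, and the log2 change was -1.37 ± 0.12 (SE). In 4T1 the counts were 2, 1 and 2 in KO and 0, 1 and 1 in control libraries, too few for a test or a fold. Cxcl2 and Cxcl3 share 61 stretches of 50 bases, 3.37% of those of Cxcl2 and 6.31% of those of Cxcl3. Reads in that shared part are uncertain, since the sources used here do not say how they were assigned.

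Summed over the 4 chemokines, EMT6 KO libraries held 50.1 ± 3.36 FPKM, against 441 ± 34.0 FPKM in EMT6 control libraries (SD, n = 3). In 4T1 the sum was 248 ± 5.50 FPKM in KO and 220 ± 11.99 FPKM in control libraries. All 4T1 KO sums were above all control sums, the nearest being 244 FPKM in KO and 234 FPKM in control libraries. FPKM is scaled by total count alone, and whether the sums stay apart under the scaling of the fits was not tested. The make-up of the sum shifted in opposite ways. Cxcl5 made up 53.1 ± 1.75% of it in EMT6 KO and 70.7 ± 1.28% in EMT6 control libraries, but 64.1 ± 1.22% in 4T1 KO and 51.5 ± 1.17% in 4T1 control libraries. Cxcl2 made up 5.90% of the sum in EMT6 KO and 6.34% in EMT6 control libraries. In 4T1, where Cxcl1 and Cxcl5 together supplied nearly all chemokine transcript, Cxcl2 made up 0.207% of the KO and 0.0799% of the control sum.

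**Figure D2:**
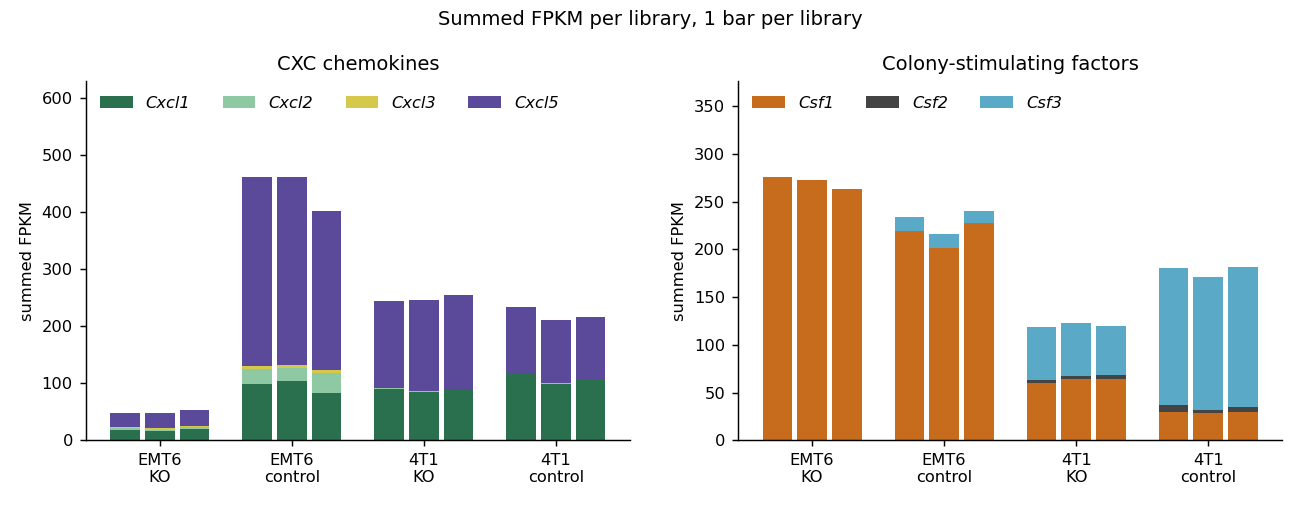
Summed FPKM (y axis, linear from 0) of the 4 chemokines (left) and of the 3 colony-stimulating factors (right), 1 bar per library, coloured by gene, in EMT6 KO, EMT6 control, 4T1 KO and 4T1 control cells (x axis). The chemokine sum is 47.8 to 54.0 FPKM in EMT6 KO libraries and 402 to 461 FPKM in EMT6 controls, and Csf3 makes up less of the factor sum in 4T1 KO than in 4T1 control libraries.

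Csf3 was the member with the lowest KO-to-control ratio in both lines. In EMT6 the counts were 7, 3 and 1 in KO and 302, 379 and 347 in control libraries, or 0.137 ± 0.112 against 14.1 ± 1.17 FPKM (SD, n = 3). From the summed 11 and 1028 counts, the EMT6 ratio was 1.01% of control with an exact 95% interval of 0.502% to 1.81%. The interval covers counting error only and not the spread between libraries, and it is no test of a difference that chose the gene. Csf3 in EMT6 passed the low-count filter only through the control group. In 4T1 it stood at 55.3, 55.4 and 51.3 FPKM in KO libraries, against 144, 139 and 147 FPKM in control libraries. The 4T1 KO mean was 37.7% of control, and no KO library came near a control. The log2 change was -6.59 ± 0.25 (SE) in EMT6 and -1.49 ± 0.05 in 4T1. Without KO replicate 1, which held 7 of the 11 KO counts, the EMT6 log2 change was -7.38. As a description, its EMT6 change ranked 10 from the lowest of 12890 tested genes, and its 4T1 change ranked 114 from the lowest of 13313. The EMT6 rank is no support, since a low KO value was built into how Csf3 came to be chosen and tested there.

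Csf1 was higher in KO cells of both lines. In EMT6 it stood at 275, 272 and 263 FPKM in KO libraries, against 219, 201 and 228 FPKM in control libraries, a ratio of 1.25. In 4T1 it stood at 60.3, 64.0 and 64.7 FPKM in KO libraries, against 29.9, 28.2 and 29.2 FPKM in control libraries, a ratio of 2.16. The groups were apart in both lines, by a narrow margin in EMT6 and a wide one in 4T1. The log2 change was 0.33 ± 0.06 (SE) in EMT6 and 1.03 ± 0.04 in 4T1. With a rank of 118 among all genes in EMT6 KO cells and 150 in EMT6 control cells, Csf1 was among the most abundant transcripts of that line.

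Csf2 was at or under 1 count in EMT6 and was detected in 4T1. In EMT6 the KO libraries held 1, 1 and 0 counts and the control libraries 0 each, all under the floor, so no fold is given. In 4T1 it stood at 3.03, 3.43 and 3.41 FPKM in KO libraries, against 6.73, 4.09 and 5.65 FPKM in control libraries, with 41 to 48 counts in KO and 49 to 87 counts in control libraries. The KO mean was 59.9% of control and the log2 change was -0.82 ± 0.21 (SE). The groups did not overlap, but control replicate 2 lay close to the KO libraries. Csf2 overlaps Gm12223 on the other strand, which was at 0 to 0.35 FPKM in 4T1, and without the strand setting their reads cannot be told apart.

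Summed over the 3 factors, EMT6 libraries held 270 ± 6.47 FPKM in KO and 230 ± 12.9 FPKM in control cells (SD, n = 3), with Csf1 at 99.9% of it in KO and 93.8% in control libraries. In 4T1 the sum was 120 ± 2.26 FPKM in KO and 178 ± 5.995 FPKM in control libraries. Csf3 was 44.9 ± 1.84% of that sum in 4T1 KO and 80.6 ± 0.735% in 4T1 control libraries, and Csf1 was 52.4 ± 1.69% in KO and 16.4 ± 0.268% in control libraries.

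Ordered by mean FPKM, which allows for gene length, EMT6 KO cells had Csf1 first, then Cxcl5, Cxcl1, Cxcl2, Cxcl3, Csf3 and Csf2, where Cxcl2 overlapped Cxcl3 and Csf3 overlapped Csf2 over libraries. EMT6 control cells had Cxcl5, Csf1, Cxcl1, Cxcl2, Csf3, Cxcl3 and Csf2, with no overlap between neighbours in the order. 4T1 KO cells had Cxcl5, Cxcl1, Csf1, Csf3, Csf2, Cxcl2 and Cxcl3, again with no overlap. In 4T1 control cells Csf3 came first, then Cxcl5 and Cxcl1, which overlapped each other, then Csf1, Csf2, Cxcl2 and Cxcl3.

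**Figure D3:**
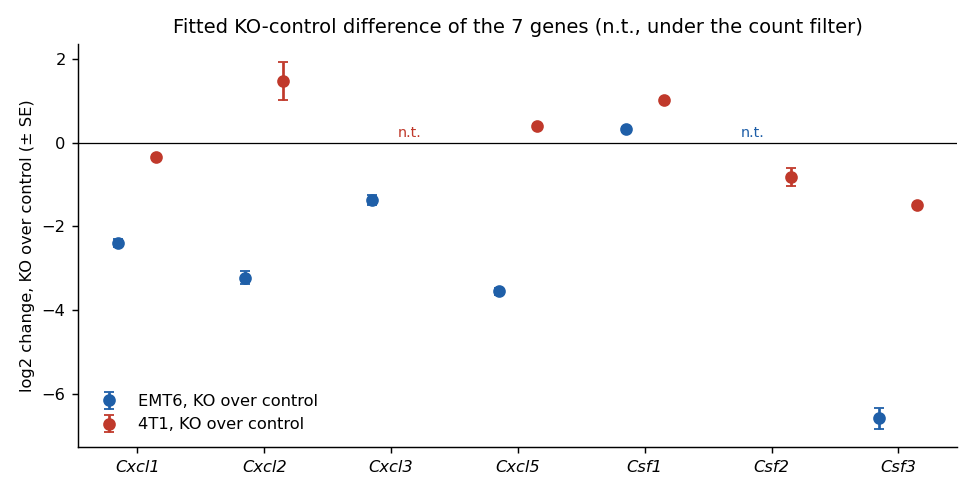
Fitted log2 change of KO over control (y axis, ± SE) for the 7 genes (x axis), EMT6 in blue and 4T1 in red, n = 3 libraries per group. In EMT6 the chemokines and Csf3 lie between -1.37 and -6.59 and Csf1 lies at 0.33. In 4T1 the values run from -1.49 for Csf3 to 1.47 for Cxcl2, and n.t. marks genes too low to be tested.

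In each line 6 of the 7 genes passed the low-count filter, Csf3 in EMT6 and Cxcl2 in 4T1 through 1 group alone. By the fitted log2 change 1 was higher and 5 were lower in EMT6 KO cells, and 3 were higher and 3 lower in 4T1 KO cells. Because the members were chosen on these contrasts, nothing is read from these counts. Over all tested genes the share called, at an adjusted p under 0.05 by edgeR's quasi-likelihood test, was 56.0% in EMT6, with 27.9% higher and 28.2% lower in KO cells. It was 57.0% in 4T1, with 28.0% higher and 29.0% lower, so that 49.1% of the called genes were higher. With scaling by total counts alone 61.2% of the called 4T1 genes were higher. The difference of the KO effects, EMT6 minus 4T1, was called for 59.9% of all genes tested in both lines, 29.7% higher and 30.2% lower. It could be fitted for 5 members and, again as a description, was -2.06 ± 0.11 (SE) for Cxcl1, -3.98 ± 0.09 for Cxcl5, -4.72 ± 0.48 for Cxcl2, -0.73 ± 0.07 for Csf1 and -5.12 ± 0.24 for Csf3, on the log2 scale. By rank from the lowest of 12006 genes these were 308, 38, 24, 1750 and 21. The ranks are no support, since the members were chosen on this contrast and Cxcl2 and Csf3 each passed 1 filter through 1 group. Without 4T1 control replicate 2 the difference was -5.32 for Cxcl2, and without EMT6 KO replicate 1 it was -5.90 for Csf3.

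Receptors of the 7 ligands were low in the tumour cells, and 7 of 8 listed ones had at most 14 counts in any library. Cxcr2, the receptor of the 4 chemokines, had 0 to 1 counts per library, and Csf3r had 0 to 2. Csf1r, the receptor of Csf1, was the 1 of 8 listed receptors that could be tested. It stood at 1.04 ± 0.0850 FPKM in EMT6 KO and 0.513 ± 0.0987 FPKM in EMT6 control libraries (SD, n = 3). Its log2 change was 1.02 ± 0.19 (SE; edgeR adjusted p = 0.000212) in EMT6, and -0.57 ± 0.37 (edgeR adjusted p = 0.198) in 4T1.

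Of 18 other listed attractants and myeloid growth factors, 10 were tested in each line, with 2 higher and 4 lower in EMT6 KO and 3 higher and 3 lower in 4T1 KO cells. These 6 of 10 lie close to the shares called over all tested genes, 56.0% in EMT6 and 57.0% in 4T1. Lcn2, an iron-siderophore binding protein of the neutrophil granule that epithelia also make, was at 0.197 ± 0.0404 FPKM in EMT6 KO and 78.4 ± 13.2 FPKM in EMT6 control libraries. Its log2 change was -8.63 ± 0.19 (SE; edgeR adjusted p = 7.09e-11) in EMT6 and 0.06 ± 0.06 (edgeR adjusted p = 0.430) in 4T1. The EMT6 KO level of Lcn2 was about as low as that of Csf3 (0.137 FPKM), so the size of this EMT6 change rests on low KO values. In EMT6 KO cells the acute-phase gene Saa3 (-3.50 ± 0.47) and the cytokine Il6 (-3.07 ± 0.30) also fell, both with 1.54 FPKM or less in controls. Saa3 held 8 counts over the EMT6 KO libraries and 88 over the controls, a ratio of 8.57% of control with an exact 95% interval of 3.59% to 17.6% for counting error. Lif, a cytokine of the interleukin-6 family, fell in both lines, with a log2 change of -0.79 ± 0.06 in EMT6 (edgeR adjusted p = 2.84e-08) and of -1.13 ± 0.06 in 4T1 (edgeR adjusted p = 8.33e-14). Kitl, or stem cell factor, rose in both lines, with a log2 change of 0.39 ± 0.07 in EMT6 (edgeR adjusted p = 0.000111) and of 0.23 ± 0.06 in 4T1 (edgeR adjusted p = 0.00181). Mif, a macrophage migration inhibitory factor, rose in EMT6 KO cells (0.32 ± 0.08) and fell in 4T1 KO cells (-0.57 ± 0.05). In 4T1 KO cells Il34, the other ligand of Csf1r, fell (-0.58 ± 0.09), whereas the dendritic cell growth factor Flt3l (0.90 ± 0.20) and the monocyte chemokine Ccl2 (1.84 ± 0.42) rose. Ccl2 was low there, with 27, 19 and 24 counts in KO and 5, 3 and 8 counts in control libraries.

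Among genes of the interleukin-1, interleukin-17, TNF and Toll-like receptor pathways, 20 of 23 were tested in EMT6, with 6 higher and 8 lower in KO cells, and 21 were tested in 4T1, with 7 higher and 5 lower. Their median log2 change was -0.15 in EMT6 and 0.08 in 4T1, beside 0.00 over all tested genes of either line. The shares called over all tested genes were 27.9% higher and 28.2% lower in EMT6, and 28.0% and 29.0% in 4T1. Il1rap, the shared subunit of the interleukin-1 receptor, fell in both lines, with a log2 change of -0.84 ± 0.07 (SE; edgeR adjusted p = 7.02e-08) in EMT6 and -0.44 ± 0.07 (edgeR adjusted p = 4.49e-06) in 4T1. Traf3ip2, the adaptor of interleukin-17 receptors also called Act1, fell in 4T1 KO cells (-0.85 ± 0.08; edgeR adjusted p = 2.44e-09). It rose in EMT6 KO cells (0.23 ± 0.07; edgeR adjusted p = 0.0168), a call lost under at least 1 setting. Tlr3, a sensor of double-stranded RNA, rose in EMT6 KO cells (0.74 ± 0.10) and fell in 4T1 KO cells (-0.41 ± 0.08).

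NF-kappaB genes went in both directions in both lines. The list of 18 subunits, kinases and inhibitors had 8 higher and 8 lower of 17 tested in EMT6 KO cells, and 4 higher and 6 lower of 18 in 4T1 KO cells. Over all tested genes 27.9% were called higher and 28.2% lower in EMT6, and 28.0% and 29.0% in 4T1. In EMT6 KO cells the inhibitor Nfkbie rose by 2.202 ± 0.08 (SE; edgeR adjusted p = 1.62e-12), the non-canonical subunit Relb by 1.40 ± 0.09 and its partner Nfkb2 by 0.96 ± 0.06. The ubiquitin-editing inhibitor Tnfaip3, or A20, rose there by 1.12 ± 0.08 and fell in 4T1 KO cells (-0.48 ± 0.05; edgeR adjusted p = 3.29e-09). Bcl3 and Nfkbiz, cofactors that bind NF-kappaB in the nucleus, fell in EMT6 KO cells, Bcl3 with a log2 change of -1.75 ± 0.10 (edgeR adjusted p = 3.46e-10) and Nfkbiz with one of -2.22 ± 0.11 (edgeR adjusted p = 4.26e-08). Nfkbiz, which acts with NF-kappaB at secondary inflammatory genes, stood at 6.90 ± 1.15 FPKM in EMT6 KO and 32.2 ± 3.08 FPKM in EMT6 control libraries. It rose in 4T1 KO cells (0.28 ± 0.05; edgeR adjusted p = 3.47e-05), and it was chosen for naming after its values were seen. The deubiquitinase Cyld fell in EMT6 KO cells (-0.33 ± 0.05) and rose in 4T1 KO cells (0.79 ± 0.05).

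**Figure D4:**
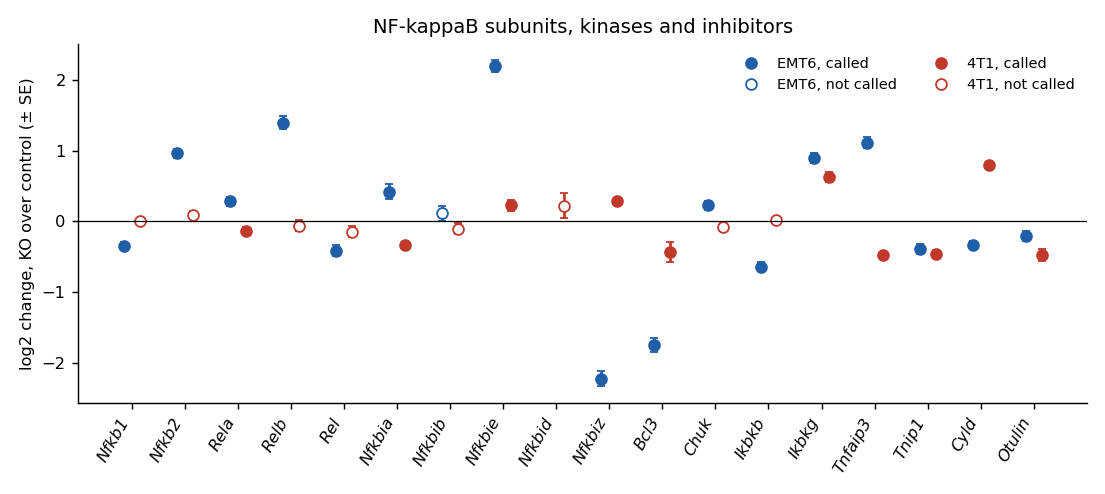
Log2 change of KO over control (y axis, ± SE) for the listed NF-kappaB subunits, kinases and inhibitors (x axis), EMT6 in blue and 4T1 in red, filled where called at an adjusted p under 0.05. Values in EMT6 run from -2.22 for Nfkbiz to 2.202 for Nfkbie, a wider range than in 4T1, where Cyld at 0.79 is the highest.

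Of the AP-1, ETS and C/EBP factors, 4 of 17 tested rose and 6 fell in EMT6 KO cells, and 5 of 16 rose and 8 fell in 4T1 KO cells. The shares over all tested genes were 27.9% higher and 28.2% lower in EMT6, and 28.0% and 29.0% in 4T1. Cebpd, a C/EBP factor induced in inflammation, was at 3.27 ± 0.406 FPKM in EMT6 KO and 15.6 ± 1.82 FPKM in EMT6 control libraries (log2 change -2.25 ± 0.11 SE, edgeR adjusted p = 1.73e-10). In 4T1 KO cells Cebpd rose (0.38 ± 0.11; edgeR adjusted p = 0.00706), a call lost under at least 1 setting. Ets2 also fell in EMT6 KO cells (-0.80 ± 0.07), while the AP-1 subunit Jun rose in EMT6 KO (1.23 ± 0.10) and fell in 4T1 KO cells (-0.41 ± 0.05). In 4T1 KO cells the immediate-early gene Egr1 fell by 1.08 ± 0.09 on the log2 scale (edgeR adjusted p = 1.93e-10) and Fosb rose by 0.83 ± 0.08.

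Of the 22 genes for decay or stability of AU-rich mRNAs, all tested, 6 rose and 6 fell in EMT6 KO cells, and 4 rose and 12 fell in 4T1 KO cells. Zc3h12a, or Regnase-1, a nuclease that cuts cytokine mRNAs, fell in EMT6 KO cells (-1.32 ± 0.11 SE, edgeR adjusted p = 3.36e-07) and had a log2 change of 0.08 ± 0.06 in 4T1 (edgeR adjusted p = 0.246). Rc3h1, or roquin, rose in EMT6 KO (0.70 ± 0.06) and fell in 4T1 KO cells (-0.35 ± 0.07). The AU-rich element-binding protein Hnrnpd, or AUF1, rose in EMT6 KO (0.34 ± 0.06) and fell in 4T1 KO cells (-0.43 ± 0.05). Cnot6, a deadenylase, fell in 4T1 KO cells (-0.35 ± 0.05) and was not called in EMT6 (0.09 ± 0.06; edgeR adjusted p = 0.226). The median log2 change of the list was 0.00 in EMT6 and -0.18 in 4T1. Over all 6 lists 27 of 87 tested genes rose and 32 fell in EMT6 KO cells, and 23 of 88 rose and 34 fell in 4T1 KO cells. Beside these counts and those of the AU-rich list, 27.9% of all tested genes were higher and 28.2% lower in EMT6. In 4T1 the shares were 28.0% and 29.0%.

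Within 500 kb of the chemokine cluster, 7 other genes were tested in EMT6, with 1 higher and 5 lower in KO cells, and 10 in 4T1, with 1 higher and 5 lower. Over all tested genes 27.9% were higher and 28.2% lower in EMT6, and 28.0% and 29.0% in 4T1. Lower in both lines were the EGF receptor ligands Areg and Btc, the Ras-association gene Rassf6 and, by a small margin, Ankrd17, with a log2 change of -0.23 ± 0.05 (SE; edgeR adjusted p = 0.00196) in EMT6 and -0.16 ± 0.05 (edgeR adjusted p = 0.0129) in 4T1. Ankrd17 was named after its values were seen, and in 4T1 it no longer passed the test under total-count scaling, or without KO replicate 3 or control replicate 2. Areg stood at 53.8 ± 7.75 FPKM in EMT6 KO and 139.9 ± 13.5 FPKM in EMT6 control libraries, and at 32.1 ± 1.54 FPKM in 4T1 KO and 72.6 ± 2.85 FPKM in 4T1 control libraries. Its log2 change was -1.37 ± 0.10 (SE; edgeR adjusted p = 9.79e-07) in EMT6 and -1.26 ± 0.06 (edgeR adjusted p = 8.45e-15) in 4T1. The log2 change of Btc was -1.95 ± 0.11 in EMT6 and -1.56 ± 0.10 in 4T1, and that of Rassf6 was -1.38 ± 0.11 in EMT6 and -1.49 ± 0.17 in 4T1. Mthfd2l, a mitochondrial folate enzyme beyond Cxcl2, rose in EMT6 KO (0.57 ± 0.09) and fell in 4T1 KO cells (-0.35 ± 0.07). Ppbp, a further ELR chemokine beside Cxcl5, was not called, with -0.14 ± 0.36 (edgeR adjusted p = 0.769) in EMT6 and 0.20 ± 0.17 (edgeR adjusted p = 0.325) in 4T1. Tested between the lines, the KO effect on Areg differed by -0.14 ± 0.12 (SE; EMT6 minus 4T1, edgeR adjusted p = 0.359) and that on Rassf6 by 0.09 ± 0.19 (edgeR adjusted p = 0.709). That on Btc differed by -0.41 ± 0.16 (edgeR adjusted p = 0.0351), a call that limma-voom did not make.

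**Figure D5:**
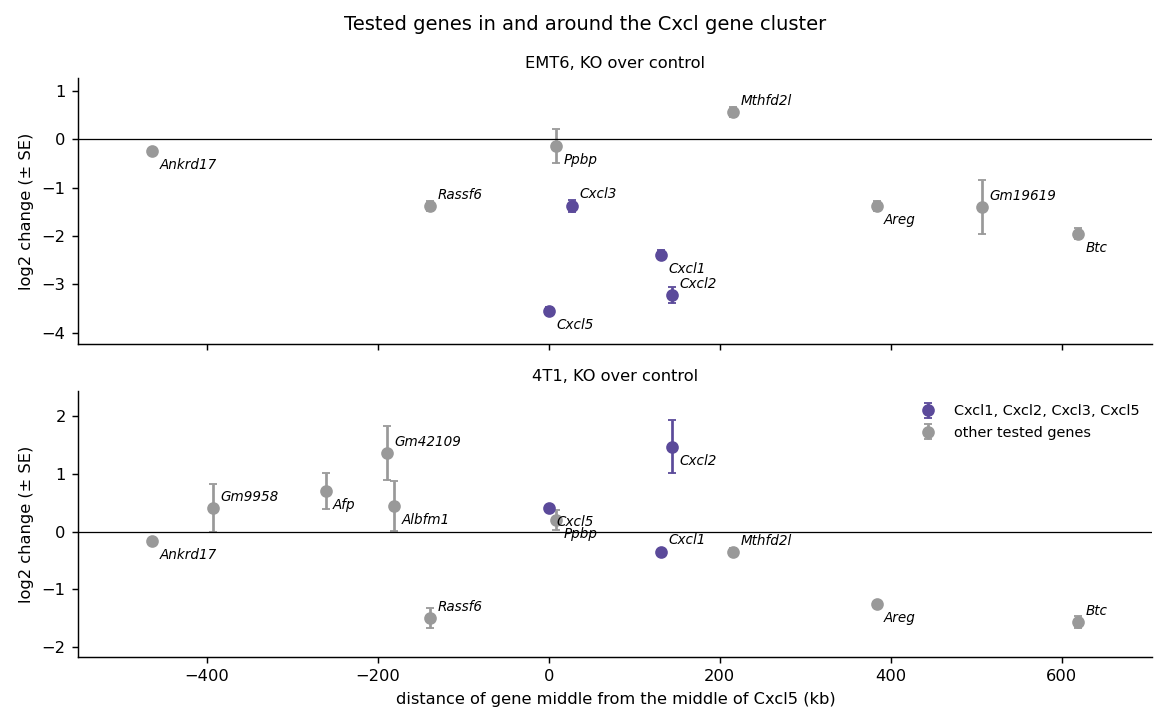
Log2 change of KO over control (y axis, ± SE) of the tested genes against the distance of their middle from the middle of Cxcl5 in kb (x axis), EMT6 above and 4T1 below. The chemokine genes (purple) lie at -1.37 or lower in EMT6 and on both sides of 0 in 4T1, while Areg, Btc and Rassf6 lie under -1 in both lines.

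Around the factor genes, 2 of 21 tested neighbours of Csf3 rose and 11 fell in EMT6 KO cells, and 4 of 22 rose and 14 fell in 4T1 KO cells. Among them Igfbp4, an IGF-binding protein, had a log2 change of -1.33 ± 0.05 (SE; edgeR adjusted p = 5.82e-12) in EMT6 and of -0.61 ± 0.04 (edgeR adjusted p = 1.21e-11) in 4T1. The focal adhesion gene Tns4 in EMT6 held 1, 0 and 2 counts in KO and 41, 72 and 74 counts in control libraries, a ratio of 1.51% of control with an exact 95% interval of 0.309% to 4.49% for counting error, and it fell by 0.66 ± 0.05 on the log2 scale in 4T1. Med24, a Mediator subunit, had a log2 change of -0.25 ± 0.07 in EMT6 (edgeR adjusted p = 0.00351) and of -1.03 ± 0.05 in 4T1 (edgeR adjusted p = 5.34e-15). Near Csf1, 1 of 21 tested neighbours rose and 9 fell in EMT6 KO cells, and 7 of 16 rose and 0 fell in 4T1 KO cells. Near Csf2, 1 of 11 rose and 5 fell in EMT6 KO cells, and 2 of 9 rose and 1 fell in 4T1 KO cells. The shares over all tested genes, for these 3 loci, were 27.9% higher and 28.2% lower in EMT6, and 28.0% and 29.0% in 4T1. Whether any locus departs from these shares was not tested.

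Profiles over the 12 libraries were compared by the root-mean-square difference of log2 CPM after centring each gene, among genes tested in both lines. This measure holds the line difference as well as the KO effect and carries no test. The genes nearest to Cxcl1 were Fbxo2 (0.191), Ikbke (0.261) and Sla2 (0.266). Nearest to Cxcl5 were Fbln1 (0.369), Saa3 (0.432) and Eepd1 (0.464), and nearest to Cxcl2 were Slc17a9 (0.522), Slpi (0.677) and Slc7a11 (0.689). Nearest to Cxcl3 were Casp1 (0.512), C1ra (0.551) and Gstm1 (0.561). Csf1 had the closest partners, Prss23 (0.124), Usp20 (0.142) and Lipa (0.145), while for Csf3 even the nearest, Lamb3 (0.802), Ptpn22 (1.00) and Pdzrn3 (1.05), were farther away. For Csf2 they were Tom1l1 (0.252), Ak3 (0.329) and Car9 (0.331). Among the 7 genes themselves, Cxcl1 and Cxcl5 were the closest pair at 0.595, followed by Cxcl2 and Cxcl3 at 1.08, and Cxcl3 and Csf3 were the farthest apart at 6.21. Distances from Cxcl2, Cxcl3, Csf2 and Csf3 rest partly on low counts. In 4T1 Cxcl3 held 0 to 2 and Cxcl2 3 to 20 counts, and Csf3 held 1 to 7 in EMT6 KO libraries. Cxcl3 and Csf2 were not themselves tested in both lines.

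Some other measures also differed between KO and control libraries, and some overlapped. Summed fibroblast markers stood at 520 to 591 FPKM in EMT6 KO and 352 to 382 FPKM in EMT6 control libraries, with 5 and 3 of 8 markers at 1 FPKM or more, and Lum and Thy1 at 0 counts in both groups. Summed leukocyte markers, of which 2 of 11 reached 1 FPKM in each group, stood at 15.3 to 17.0 FPKM in EMT6 KO and 28.2 to 33.9 FPKM in EMT6 control libraries. In 4T1 they overlapped, at 26.5 to 29.4 FPKM in KO and 24.1 to 26.7 FPKM in control libraries. Summed epithelial markers were at 1406 to 1486 FPKM in 4T1 KO and 1951 to 2029 FPKM in 4T1 control libraries. 4T1 KO libraries also detected 20937 to 21264 genes, against 18836 to 19017 in 4T1 control libraries, and the nuclear RNA Malat1 stood at 72.9 ± 6.35 FPKM in 4T1 KO and 14.7 ± 6.57 FPKM in 4T1 control libraries. The part of these in the values of the 7 genes was not tested.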

How the data were processed

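The submitters' processing notes name cutadapt 1.9.1, HISAT2 2.2.1, HTSeq 0.6.1, DESeq2 and GRCm38, without saying which step each served. For each line the authors deposited raw read counts and FPKM per gene. The deposited FPKM were recomputed from count, total count and exonic size, and all 340146 values of each line matched within 0.0051.

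Raw counts were fitted per line with edgeR 4.0.16 (R 4.3.3). Genes with low counts were dropped by filterByExpr (minimum 10), scaling was by TMM, and the quasi-likelihood test of KO over control was 2-sided, adjusted by Benjamini-Hochberg over all genes tested and called under 0.05. The lines were set against each other by the interaction term over all 12 libraries. An exact permutation of 3 against 3 libraries cannot go below 0.1, so these tests rest on a spread shared across genes, a biological coefficient of variation of 4.82% for 4T1 and 6.73% for EMT6. No 2 libraries of a group were identical or alike within sampling noise. Each fit was tested on simulated data.

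The members and lists were chosen with earlier results of these data known. Named genes are the members, Nedd4, at most 5 called genes per list and line and at most 4 called neighbours per locus and line, by lowest adjusted p, and the 3 genes nearest in profile by log2 CPM (prior count 2). Alternatives were DESeq2 1.42.0, limma-voom (limma 3.58.1), 2 other scalings, 2 other filters, a joint fit, a replicate block and leaving out each library.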

Additional observations from a re-analysis of the deposited data

Results flagged for a closer look

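Every value below is the KO effect in EMT6 minus the KO effect in 4T1 from the 12-library fit, on the log2 scale. The 5 members with counts enough in both lines were chosen with this contrast known, so their values are a description without a call. The difference was -2.06 for Cxcl1, -4.72 for Cxcl2, -3.98 for Cxcl5, -0.73 for Csf1 and -5.12 for Csf3. Cxcl2 in 4T1 and Csf3 in EMT6 passed the low-count filter through 1 group alone. Of the 38 other named genes, 33 differed, with adjusted p-values of edgeR's quasi-likelihood test of at most 0.0351. Over all 12006 genes tested in both lines 59.9% were called, and the named genes were chosen for their small p, so nothing is read from this count.

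It was -1.35 for Nedd4, the targeted gene, and 1.57 for Csf1r. Of the other attractants and growth factors it was 0.32 for Lif, 0.87 for Mif and 0.88 for Il34, and -8.71 for Lcn2, -4.36 for Il6, -3.50 for Saa3, -1.73 for Ccl2 and -0.75 for Flt3l. Of the inducing pathways it was 1.05 for Traf3ip2, 1.13 for Tlr3 and -0.42 for Il1rap. Of the NF-kappaB genes it was 1.95 for Nfkbie, 1.57 for Tnfaip3, 1.43 for Relb and 0.85 for Nfkb2, and -2.53 for Nfkbiz, -1.34 for Bcl3 and -1.14 for Cyld. Of the AP-1, ETS and C/EBP factors it was 1.62 for Jun, 1.22 for Egr1, -0.81 for Ets2 and -2.65 for Cebpd. Of the genes for AU-rich mRNA decay it was 1.02 for Rc3h1, 0.75 for Hnrnpd, 0.42 for Cnot6 and -1.41 for Zc3h12a. Of the neighbouring genes it was 0.90 for Mthfd2l, 0.75 for Med24, -0.41 for Btc, -0.73 for Igfbp4 and -5.22 for Tns4. In the EMT6 KO libraries Tns4 held 0 to 2, Saa3 2 to 4 and Csf3 1 to 7 counts, and Lcn2 was low there too. Without 1 EMT6 KO library the difference was -4.63 (replicate 2) or -6.13 (replicate 3) for Tns4 and -5.90 (replicate 1) for Csf3. Without 4T1 control replicate 2 it was -5.43 for Il6 and -5.32 for Cxcl2.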

How the results depend on the processing

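The sign of each member's fitted log2 change was the same under every alternative run, as a description of values that chose the members. Scaling by total counts only gave 4T1 log2 changes of 0.49 for Cxcl5, 1.11 for Csf1 and -1.41 for Csf3. Leaving out 1 library at a time gave -7.38 to -6.24 for Csf3 in EMT6 (lowest without KO replicate 1), 1.24 to 2.08 for Cxcl2 in 4T1 (highest without control replicate 2), -5.32 to -4.48 for the Cxcl2 difference and -5.90 to -4.77 for the Csf3 difference. Counts of called genes ran from 6242 to 7616 in EMT6, 6829 to 7832 in 4T1 and 6818 to 7906 for the difference, pathway genes from 52 to 62 in EMT6 and 49 to 59 in 4T1, and neighbours from 31 to 35 in EMT6 and 30 to 36 in 4T1. In 4T1, 3 uncalled genes changed sign, and the cause was not tested. Saa3, at -0.02, was 0.10 with limma-voom, 0.064 with total counts only, 0.019 with the replicate block and -0.30 to 0.53 leaving out 1 library. Ets2, also at -0.02, was 0.061 with total counts only and -0.0602 to 0.032 leaving out 1 library, and Relb, at -0.06, was 0.022 with total counts only. The calls of Bcl3, Nfkbie and Cebpd in 4T1, Ankrd17 in 4T1, Traf3ip2 in EMT6 and the differences of Btc and Flt3l were each lost under at least 1 setting.

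Same-numbered KO and control libraries did not deviate together (correlations from -0.132 to 0.00906 across genes). Differently numbered ones ran from -0.0392 in 4T1 to 0.128 in EMT6 (KO replicate 3 with control replicate 1). With 3 libraries per group these values cannot exclude shared cultures or batches, and the main fits were unpaired. With the replicate block 6830 genes were called in EMT6, 7676 in 4T1 and 6997 for the difference, against 7224, 7589 and 7197 without it. Depth limits Cxcl3 in 4T1 and Csf2 in EMT6, which were under 3 counts in every library, and Cxcl2 in 4T1 and Csf3 in EMT6, each low in 1 group.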
